A study of Mus musculus with 21 samples.

Results

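The expression of 10 core genes of the Hedgehog pathway was examined in whole brains of SAMP8 mice, out of 16318 genes in the deposited table. The genes were chosen by name as the ligand Shh, the receptor Ptch1, the transducer Smo, the co-receptors Cdon and Boc, the ligand-binding inhibitor Hhip, the Gli regulator Sufu and the transcription factors Gli1, Gli2 and Gli3. All 10 were present, and all 10 were among the 16303 genes that passed the filter on low counts.

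The Hedgehog pathway carries signals from a secreted lipid-modified protein to Gli transcription factors. In the absence of ligand the receptor Patched holds back the transducer Smoothened, and the Gli proteins are kept in check by Sufu and cut into repressors. When Sonic hedgehog binds Patched together with co-receptors such as Cdon and Boc, Smoothened enters the primary cilium, Gli activators form, and Gli1, Ptch1 and Hhip are transcribed as targets of the pathway itself. In the brain the pathway patterns the neural tube and drives the growth of cerebellar granule cell precursors, and in the adult it is used by neural stem cells and by astrocytes, including the Bergmann glia that sit beside Shh-producing Purkinje cells.

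SAMP8 is a senescence-accelerated inbred strain used as a model of sporadic Alzheimer's disease, and all the mice were of this strain, so that no normally aging strain stood beside them. From 4 months of age the mice received subcutaneous injections every other day for 8 weeks, either of PBS, the vehicle, or of HsTX1[R14A] at 1 mg/kg. HsTX1[R14A] is a peptide analog of a scorpion toxin that blocks the potassium channel Kv1.3, and the comparison asks how brain transcripts differ after its chronic dosing. Brains were collected at about 6 months of age, after perfusion with PBS. The groups held 6 PBS-treated females, 6 PBS-treated males, 3 HsTX1[R14A]-treated females and 6 HsTX1[R14A]-treated males, 1 library per mouse. Each level below is in CPM, the usual depth-normalized unit for counts, scaled between libraries by TMM.

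The 21 libraries held between 14917171 and 47613770 counts, and the 2 treatments overlapped in depth. The libraries also differed in the level of long transcripts against short ones. For each library a slope was computed across genes, as the log2 CPM of a gene (relative to its mean over mice) per doubling of its longest annotated transcript. This length slope was -0.0764 ± 0.161 (SD, n = 12) in PBS-treated mice and 0.102 ± 0.119 (SD, n = 9) in HsTX1[R14A]-treated mice, a difference of 0.178 (exact permutation test, two-sided p = 0.0112), and 8 of 9 treated libraries lay above the PBS median. The lowest slopes were those of PBS female 103, at -0.384, and PBS male 90, at -0.337. The file headers name the libraries in 2 forms, the more common of which holds 10 PBS and 5 HsTX1[R14A] libraries and the less common 2 PBS and 4 HsTX1[R14A] libraries. What this form stands for is not given in the sources used here.

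The labels call the tissue brain and the study whole brain, and markers of neurons, oligodendrocytes and astrocytes were present in every library. For the cerebellum, a main site of Shh production, the markers Pcp2, Gabra6 and Cbln3 were at or near 0 in most. Some other genes of the list of Bergmann glia and cerebellum used below were not near 0, but whether their RNA came from the cerebellum was not tested. Mean levels with PBS and HsTX1[R14A] were 179 and 159 CPM for Calb1, and 475 and 580 CPM for Itpr1. Pcp2, a Purkinje cell gene, was highest at 38.9 CPM in HsTX1[R14A] male 74, next at 5.99 CPM in PBS female 73, had a median of 0.159 CPM and was at 0 counts in 4 mice. The granule cell genes Gabra6 (90.1 CPM in male 74, 15 CPM in female 73, median 0.228 CPM) and Cbln3 (128, 15.1 and 0.357 CPM) had the same 2 mice on top. The hypothalamic gene Pmch ranged from 0.178 to 201 CPM. Marker genes of these regions thus differed widely between libraries of 1 group, and counts are given below with and without these 2 mice.

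When brains of HsTX1[R14A]-treated mice were compared with those of PBS-treated mice, 5144 of 16303 genes (31.6%) passed a false discovery rate (FDR) of 0.05 in edgeR's quasi-likelihood test with sex in the model, with 15.5% of all genes higher after HsTX1[R14A] and 16.1% lower. Of the 10 Hedgehog pathway genes 3 passed, all higher with HsTX1[R14A]: the receptor Ptch1, the Gli regulator Sufu and the co-receptor Boc. The median log2 fold change of the 10 genes was 0.353 against -0.0126 over all genes tested, and 9 of 10 values were positive, where 48.6% of all genes had a positive value. When the length slope of the library was added to the model, no gene of the 16303 passed (0%, with 1865 genes at an unadjusted p under 0.05), the median of the 10 genes was 0.0229 and 6 of 10 values were positive. With PBS female 73 and HsTX1[R14A] male 74 left out, a choice made after seeing the data, 1549 of 16302 genes (9.50%) passed. None of the 10 did, the FDR being 0.0510 for Sufu, 0.0599 for Ptch1 and 0.111 for Boc at log2 fold changes of 0.60, 0.52 and 0.45. The length slope differed between the treatments, so that the effect of the treatment and that of the slope could not be fully told apart, and the part of the slope in the results below was not tested. Among libraries of the more common name form 0 of 16305 genes passed (0%, with 5797 at an unadjusted p under 0.05), all 10 estimates were positive with a median of 0.465, and the lowest FDR of the 10 was 0.0683, for Ptch1. Among those of the less common form (2 PBS and 4 HsTX1[R14A] mice) 0 of 16170 genes passed, with 532 at an unadjusted p under 0.05, 7 of 10 estimates were positive with a median of 0.23, the lowest FDR was 0.855, and the log2 fold changes of Ptch1 and Sufu were 0.24 and 0.31. With the name form in the model 1999 genes (12.3%) passed, Ptch1 and Sufu among them. In whole brain, moreover, a difference in the number of cells of a type and a difference in RNA per cell cannot be told apart.

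**Figure D1:**
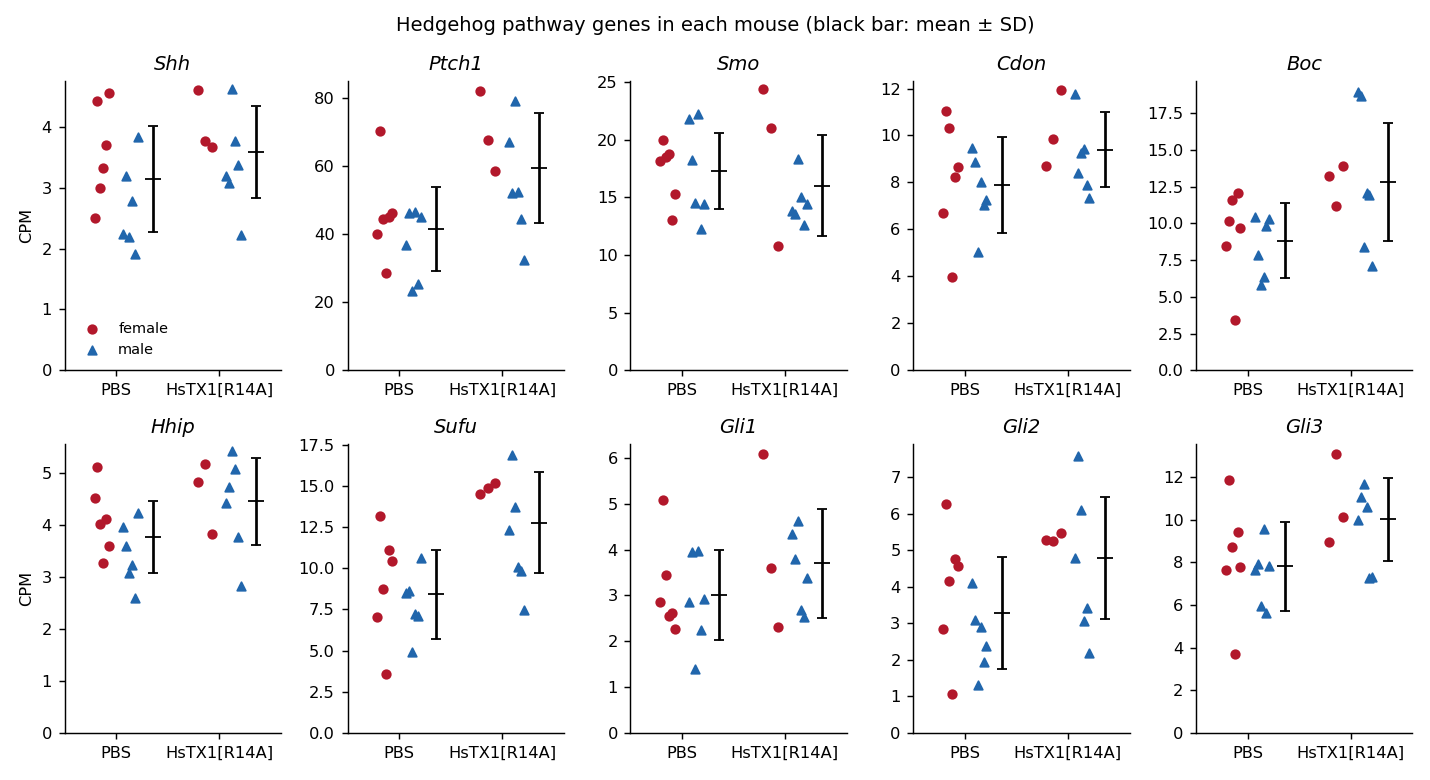
Level in CPM of the 10 Hedgehog pathway genes in each of 21 mice, PBS on the left and HsTX1[R14A] on the right of each panel, with females as red circles, males as blue triangles and the mean ± SD of each treatment as a black bar. The treatments overlap for every gene, and Sufu has 5 of 9 HsTX1[R14A] values above the highest PBS value.

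Shh, the ligand, lies at chr5:28456815-28467256 on the minus strand (GRCm38, GENCODE M21), with a single annotated transcript of 3 exons. Its level in PBS-treated mice was 1.92 CPM at the lowest, 3.10 at the median and 4.57 at the highest, and in HsTX1[R14A]-treated mice 2.23, 3.68 and 4.63 CPM. The lowest treated mouse was male 93 and the lowest PBS mouse was male 101, and the ranges overlapped over nearly their whole length. The log2 fold change was 0.26 ± 0.14 (SE), with FDR = 0.161 in edgeR's test. Once the length slope was added the log2 fold change was 0.04 (FDR = 0.953). Of its 2847 exon bases 361 are shared with Gm26894 and 446 with 9530036O11Rik, both on the opposite strand. Reads there could be told apart only by strand, and since the labels and the methods name different library kits, it is not certain that strand was used in the counting.

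Ptch1 encodes the Hedgehog receptor, which is also a target gene of the pathway and a feedback inhibitor of it. The gene lies at chr13:63508328-63573598 on the minus strand and its longest transcript, of 10383 bases, is the longest of the 10 genes. PBS-treated mice ranged from 23.3 to 70.2 CPM with a median of 44.7 CPM, and HsTX1[R14A]-treated mice from 32.4 to 81.9 CPM with a median of 58.5 CPM. The 3 lowest mice were all PBS-treated (males 90 and 101 and female 103), and 11 of 12 PBS mice lay below the treated median, the exception being female 84. Ptch1 was higher with HsTX1[R14A], with a log2 fold change of 0.57 ± 0.17 (SE), 1.49-fold, and FDR = 0.0218 in edgeR's test. It kept its call when any 1 of the 21 mice was left out, with FDR between 0.00874 and 0.0450. With the length slope in the model its log2 fold change was 0.14 (FDR = 0.70).

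Smo, at chr6:29735503-29761365 on the plus strand, encodes the transducer that Ptch1 restrains, and it was the single gene of the 10 with a negative estimate. PBS-treated mice had 12.3, 18.2 and 22.2 CPM at the lowest, median and highest, against 10.8, 14.4 and 24.4 CPM in HsTX1[R14A]-treated mice. The treated group held both the lowest mouse, female 98, and the highest, female 71, and 3 of 9 treated mice lay above the PBS median. The log2 fold change was -0.09 ± 0.14 (SE) with FDR = 0.620 in edgeR's test. The sign was not stable, since the estimate was 0.01 with the library name form in the model and 0.04 among libraries of the more common form.

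Cdon and Boc encode cell-surface co-receptors of the immunoglobulin superfamily that bind Shh along with Ptch1. Cdon (chr9:35421128-35507652, plus strand) measured 3.97, 8.14 and 11 CPM at the lowest, median and highest in PBS-treated mice, and 7.33, 9.25 and 11.9 CPM in HsTX1[R14A]-treated mice. Below the lowest treated mouse lay 5 of 12 PBS mice, but the log2 fold change of 0.27 ± 0.14 (SE) did not pass the test (FDR = 0.143). Boc (chr16:44485049-44558897, minus strand) measured 3.41, 9.75 and 12.1 CPM in PBS-treated mice, and 7.13, 12.1 and 18.9 CPM in HsTX1[R14A]-treated mice. Its 2 highest values, 18.7 and 18.9 CPM, were those of treated males 81 and 74, and its lowest was that of PBS female 103. Boc was higher with HsTX1[R14A], with a log2 fold change of 0.55 ± 0.20 (SE), 1.46-fold, and FDR = 0.0407 in edgeR's test. This call was lost without any 1 of 9 mice (PBS female 73, PBS males 83, 90 and 91, treated females 71, 72 and 98, and treated males 74 and 81), the FDR reaching 0.0812 without treated male 81. With the length slope in the model the log2 fold changes were -0.11 for Cdon and 0.05 for Boc.

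Hhip binds Hedgehog ligands at the membrane and withholds them from Ptch1, and like Ptch1 it is induced by the pathway. The gene lies at chr8:79965851-80058006 on the minus strand. Its level was 2.60, 3.79 and 5.12 CPM at the lowest, median and highest in PBS-treated mice and 2.83, 4.74 and 5.43 CPM in HsTX1[R14A]-treated mice, and 7 of 9 treated mice lay above the PBS median. The log2 fold change was 0.27 ± 0.12 (SE) with FDR = 0.0801 in edgeR's test, which did not pass.

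Sufu binds the Gli proteins and holds them inactive in the cytoplasm, and it had the smallest FDR of the 10 genes. It lies at chr19:46396896-46488804 on the plus strand. In PBS-treated mice its level was 3.55, 8.55 and 13.2 CPM at the lowest, median and highest, and in HsTX1[R14A]-treated mice 7.49, 13.7 and 16.9 CPM. All 12 PBS mice lay below the treated median and 5 of 9 treated mice, the 3 females among them, lay above the highest PBS mouse. How many of all genes separate the groups as far was not counted. The log2 fold change was 0.63 ± 0.18 (SE), 1.55-fold, with FDR = 0.0197 in edgeR's test, and FDR stayed between 0.00886 and 0.0400 when any 1 mouse was left out. The same gene had the closest tie to the length slope of its library, and with the slope in the model its log2 fold change was 0.06 (FDR = 0.787).

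Gli1, Gli2 and Gli3 encode the zinc-finger transcription factors at the end of the pathway. Gli1 (chr10:127329882-127341974, minus strand), an activator whose own level is often read as a gauge of pathway activity, measured 1.39, 2.86 and 5.08 CPM at the lowest, median and highest in PBS-treated mice and 2.32, 3.59 and 6.08 CPM in HsTX1[R14A]-treated mice. Its log2 fold change of 0.32 ± 0.20 (SE) did not pass edgeR's test (FDR = 0.199). Treated female 98 was below the PBS median and treated female 71 above every PBS mouse, so that the 3 treated females alone spanned most of the range.

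Gli2 (chr1:118834132-119053619, minus strand), the main activator on first exposure to ligand, varied the most of the 10 genes, with the highest mouse 7.13 times the lowest. It measured 1.06, 2.99 and 6.26 CPM at the lowest, median and highest in PBS-treated mice and 2.17, 5.26 and 7.59 CPM in HsTX1[R14A]-treated mice. The lowest value rested on 15 counts, in PBS female 103. Its log2 fold change was the largest of the 10 at 0.64 ± 0.25 (SE), yet it did not pass edgeR's test (FDR = 0.0571).

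Gli3 (chr13:15463235-15730026, plus strand), which acts mostly as a repressor, measured 3.69, 7.81 and 11.9 CPM at the lowest, median and highest in PBS-treated mice and 7.25, 10.1 and 13.1 CPM in HsTX1[R14A]-treated mice. Above the PBS median lay 7 of 9 treated mice, and the log2 fold change of 0.38 ± 0.15 (SE) did not pass edgeR's test (FDR = 0.0581). With the length slope in the model the estimates were 0.01 for Gli1, -0.17 for Gli2 and -0.01 for Gli3, none with an FDR below 0.661. Exons of Gli1, Gli3 and Hhip overlap transcripts on the opposite strand by 62 to 265 bases, with the same limit.

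**Figure D2:**
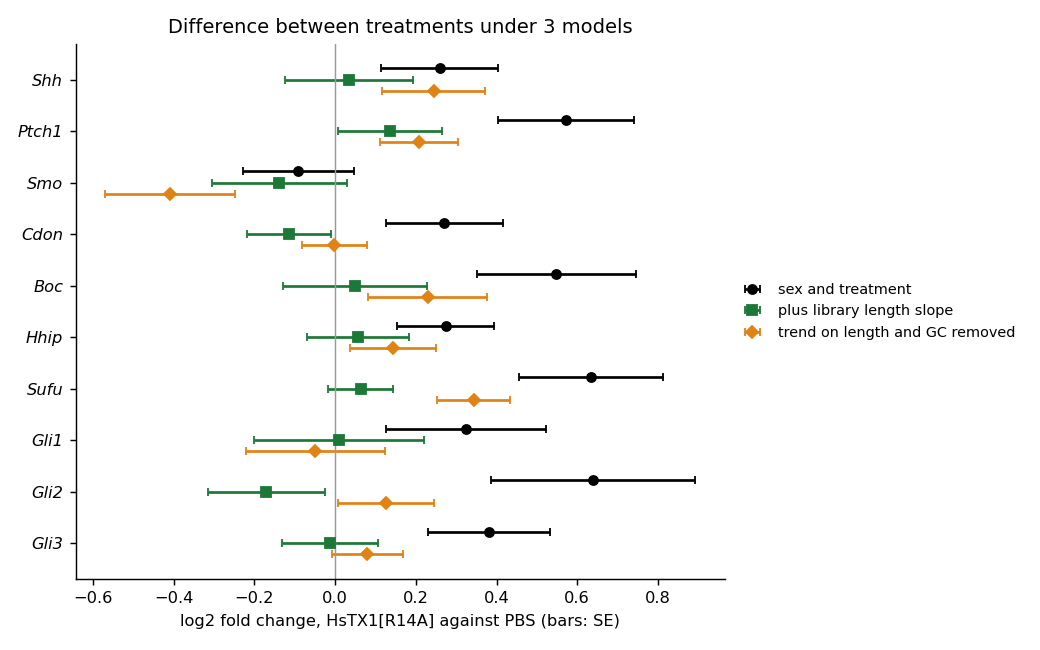
Log2 fold change between HsTX1[R14A]-treated and PBS-treated mice with its SE for each gene, in black with sex and treatment in the model, in green with the length slope of the library added, and in orange after removal from each library of a smooth trend over length and GC. With sex and treatment 9 of 10 estimates lie above 0, and with the slope added they lie between -0.17 and 0.14.

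The lengths of the 10 genes were unlike those of genes at large. Their longest transcripts had a median of 5579.5 bases against 3283.5 bases over the 16224 genes with an annotated length, and when all genes were split by length into 5 bins of equal size, bin 5 being the longest, 5 of the 10 were in bin 5 (Ptch1, Gli2, Gli3, Hhip and Cdon), 3 in bin 4 (Gli1, Sufu and Boc) and 2 in bin 3 (Shh and Smo). Over all genes the median log2 fold change went from -0.285 in bin 1 to 0.0848 in bin 4 and 0.233 in bin 5, and the share of genes that passed in the upward direction from 1.42% to 20.7% and 35.4%. Sufu, Boc, Ptch1, Shh, Gli2 and Gli1 stood above the median of their own bin by more than 1 SE, while Gli3, Cdon, Hhip and Smo stood within 1 SE of it. When a smooth trend on length and GC content was removed from each library, 15% of genes passed and Sufu was the 1 gene of the 10 among them, with a log2 fold change of 0.34 (FDR = 0.0204). In that fit Ptch1 had 0.21 (FDR = 0.130), Boc 0.23 (FDR = 0.282) and Smo -0.41 (FDR = 0.0819).

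**Figure D3:**
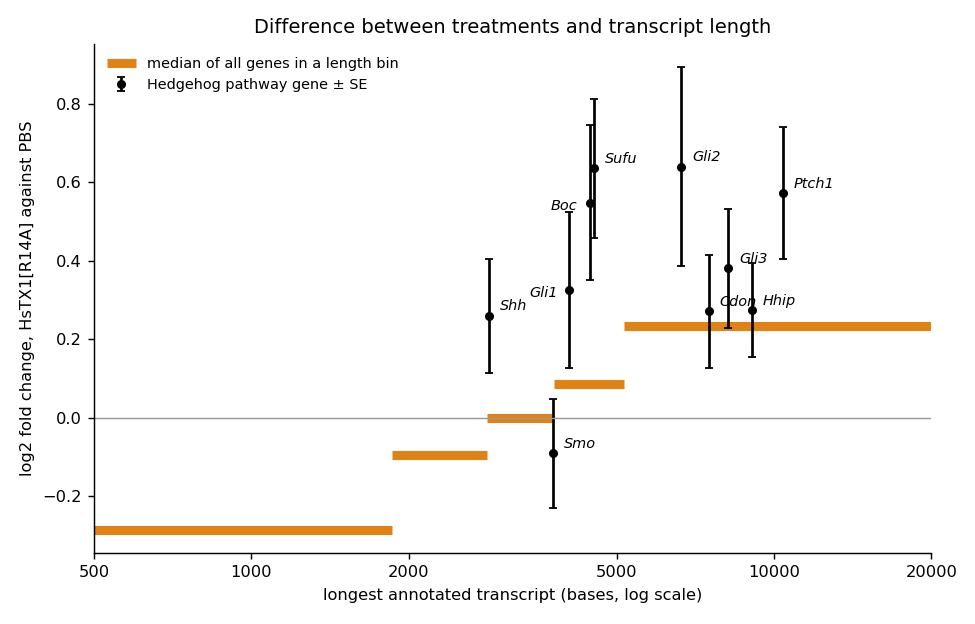
Log2 fold change of each Hedgehog pathway gene (black, with SE) against the length of its longest annotated transcript on a log axis, with the median log2 fold change of all genes in each of 5 length bins as orange bars. The all-gene median climbs from -0.285 in the shortest bin to 0.233 in the longest, and none of the 10 genes is in the 2 shortest bins; the axis is limited to 500 to 20000 bases, and the outermost bars extend beyond it.

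The tie between the genes and the length slope was also measured within each treatment. Among the 12 PBS mice, the log2 CPM of Sufu followed the slope with Pearson's r = 0.948 (permutation test, p = 3e-05, adjusted p = 0.0002) and Spearman's rho = 0.937 (permutation test, p = 7e-05, adjusted p = 0.0014), and r was 0.858 without the 2 mice farthest from the median slope. Among the 9 HsTX1[R14A] mice Sufu had r = 0.978 (exact permutation test, p = 0.000105, adjusted p = 0.000524) and rho = 0.95 (exact permutation test, p = 0.000353, adjusted p = 0.00353), and r was 0.937 without the 2 farthest. Adjustment was over the 20 relations computed, 10 genes in each treatment. In PBS-treated mice 8 of 10 genes passed on r, of which 7 passed on rho as well. In HsTX1[R14A]-treated mice 3 passed on r (Ptch1, Gli2 and Sufu), of which 2 passed on rho. Ptch1 had r = 0.761 and rho = 0.467 in treated mice. Without the 2 farthest treated mice its r dropped to 0.366, while that of Gli2 was 0.79. The relation of Ptch1 in PBS-treated mice had r = 0.866 (permutation test, p = 0.00039, adjusted p = 0.0013) and rho = 0.678 (permutation test, p = 0.0187, adjusted p = 0.0416), and r was 0.797 without the 2 farthest mice. For Boc in PBS-treated mice r was 0.825 (permutation test, p = 0.00131, adjusted p = 0.00327) and rho 0.741 (permutation test, p = 0.0082, adjusted p = 0.0234), but r dropped to 0.484 without the 2 farthest, so this relation rested in part on PBS female 103 and PBS male 90. Smo showed none in PBS-treated mice, with r = 0.133 (permutation test, p = 0.676, adjusted p = 0.676) and rho = 0.0629 (permutation test, p = 0.851, adjusted p = 0.851). Within the more common name form, which held 10 of the PBS libraries, r was 0.948 for Sufu, 0.868 for Ptch1 and 0.804 for Boc. The other form held too few mice of either treatment for a value. The slope was computed over all genes of the same libraries, the 10 genes included.

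**Figure D4:**
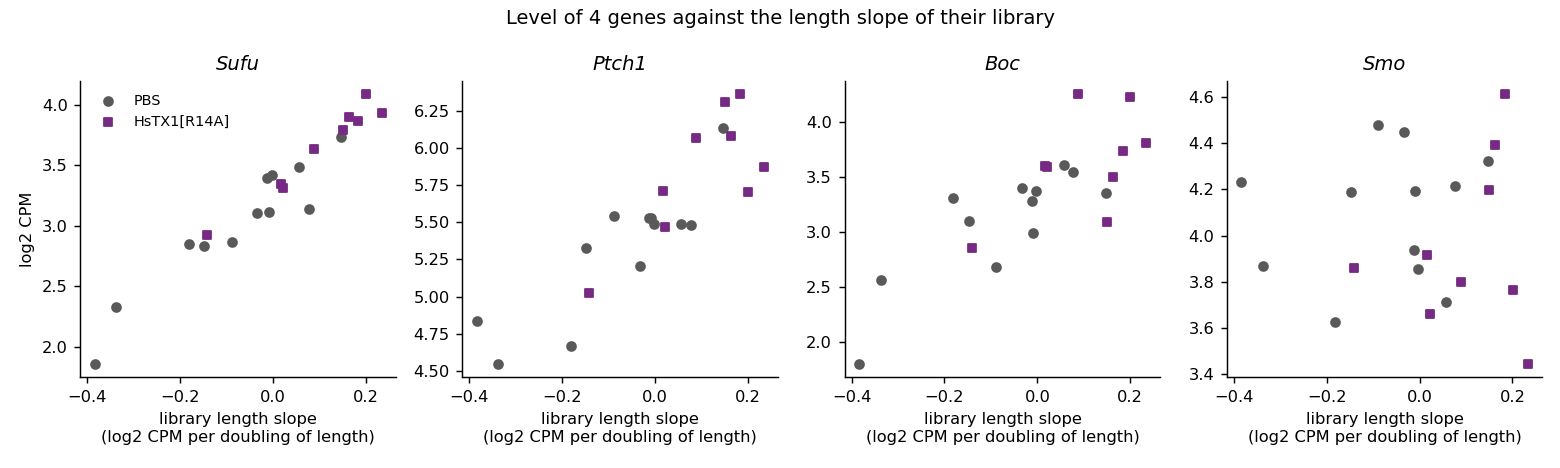
Log2 CPM of Sufu, Ptch1, Boc and Smo in each mouse against the length slope of its library (log2 CPM per doubling of transcript length), with PBS as gray circles and HsTX1[R14A] as purple squares. Sufu lies close to a single rising line in both treatments (r = 0.948 and 0.978), whereas Smo shows no such line.

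Levels were compared between the genes per length. Mean CPM per kb of longest transcript over the 21 mice was 4.73 ± 1.59 (SD) for Ptch1 and 4.42 ± 0.995 for Smo, the receptor and its transducer. Next came Boc at 2.37 ± 0.845 and Sufu at 2.27 ± 0.786. Shh, Cdon and Gli3 had 1.17 ± 0.293, 1.14 ± 0.263 and 1.07 ± 0.278, followed by Gli1 at 0.816 ± 0.272, Gli2 at 0.592 ± 0.26 and Hhip at 0.449 ± 0.0896 CPM per kb. All 10 lay below the median of all genes on this scale, from percentile 48.1 for Ptch1 to percentile 11.3 for Hhip. Of the 9 pairs of neighbors in this order 4 did not separate, as Ptch1 lay above Smo in 12 of 21 mice, Boc above Sufu in 10, Shh above Cdon in 11 and Cdon above Gli3 in 13. In the other 5 pairs the order held in most mice: Smo lay above Boc in 18 of 21 mice and in all 12 PBS mice, Sufu above Shh in 20, Gli3 above Gli1 in 18, Gli1 above Gli2 in 17 and Gli2 above Hhip in 16. Ptch1 was above Smo in 4 of 12 PBS mice and in 8 of 9 HsTX1[R14A] mice. Among PBS mice, however, Ptch1 followed the length slope (Pearson's r = 0.866) and Smo did not (r = 0.133). The slope differed between the treatments, and its part in these counts was not tested. The order depends on the longest transcript standing for the transcripts present in the tissue.

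**Figure D5:**
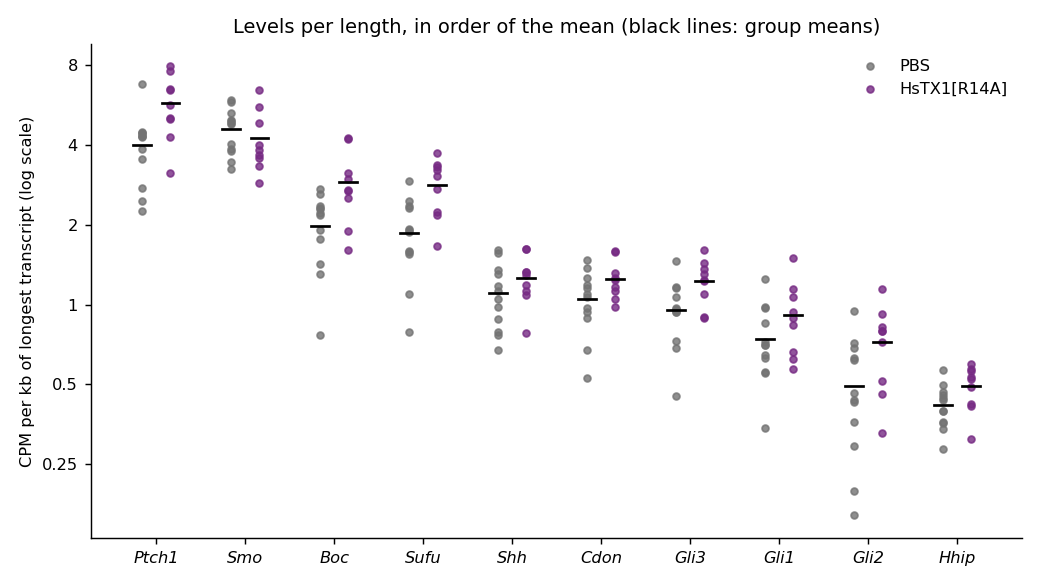
Level of each gene in CPM per kb of its longest annotated transcript on a log scale, in descending order of the mean over 21 mice, with 1 point per mouse (gray PBS, purple HsTX1[R14A]) and black lines at the mean of each treatment. Means run from 4.73 CPM per kb for Ptch1 to 0.449 for Hhip, and the ranges of neighboring genes overlap.

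The sequence upstream of Ptch1 and Sufu is shown because these 2 genes kept their call without any 1 mouse. RefSeq start-site windows (GRCm38.p6) were matched for 7 of the 10 genes (Gli2, Smo, Hhip, Cdon, Gli3, Ptch1 and Sufu), and the 250 bases before the start were searched on both strands for 2 motifs. The GLI binding motif GACCACCCA was found in 0 of 7 windows, against 0.218% of 32544 windows over all genes, and 0 of 7 held a match with at most 1 letter differing, against 5.82%. At shares so small 0 was the likely count in any 7 windows, so the search cannot show whether these genes have GLI sites. The GC box GGGCGG, a motif common in promoters rich in CpG, was found in 5 of 7 windows (Gli2, Gli3, Hhip, Ptch1 and Sufu), against 33% of all windows. The 2 upstream sequences follow, on the strand of the gene, with the GC box (or its reverse complement CCGCCC) in capitals. The Ptch1 window (chr13:63565736-63565985, minus strand) has 78.4% GC and 41 CpG and precedes a RefSeq start that lies inside the gene as GENCODE annotates it. The starts used for Cdon and Gli3 also lie inside their annotated genes. The Sufu window (chr19:46396646-46396895, plus strand) has 54.0% GC and 8 CpG and ends at the base before the gene.
Ptch1: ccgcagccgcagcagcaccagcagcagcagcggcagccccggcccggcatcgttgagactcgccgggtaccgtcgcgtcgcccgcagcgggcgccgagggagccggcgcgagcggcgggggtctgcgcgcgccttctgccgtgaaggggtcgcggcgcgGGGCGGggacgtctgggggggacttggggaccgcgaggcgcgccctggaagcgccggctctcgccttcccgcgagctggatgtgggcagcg
Sufu: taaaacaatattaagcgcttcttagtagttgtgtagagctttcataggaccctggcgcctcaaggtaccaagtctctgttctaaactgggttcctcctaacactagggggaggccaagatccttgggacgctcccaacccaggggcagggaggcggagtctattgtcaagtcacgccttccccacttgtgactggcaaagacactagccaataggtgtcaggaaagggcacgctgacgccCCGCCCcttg

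Between the sexes none of the 10 genes differed in edgeR's test. Between males and females 9 of 16303 genes (0.0552%) passed FDR 0.05 in edgeR's test, and all 10 estimates were lower in males, with log2 fold changes from -0.46 for Gli2 to -0.08 for Boc, where 48.5% of all genes had a positive value. Shh had the lowest unadjusted p of the 10, at 0.0268 in edgeR's test (FDR = 0.446), with 3.59 ± 0.810 CPM (SD, n = 6) in PBS females and 2.70 ± 0.727 CPM (SD, n = 6) in PBS males. With sample quality weights in limma/voom 2582 genes (15.8%) passed, Gli2 and Sufu among them. Length slopes were also lower in males than in females of the same treatment, at -0.109 ± 0.130 (SD, n = 6) against -0.0440 ± 0.194 (SD, n = 6) with PBS and 0.0559 ± 0.120 (SD, n = 6) against 0.194 ± 0.0363 (SD, n = 3) with HsTX1[R14A].

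Within each sex the treatment estimates of most genes had the same sign, but the groups were small and no gene passed edgeR's test. In females 0 of 16303 genes (0%) passed edgeR's test, with 4539 at an unadjusted p under 0.05, and in males 0 (0%), with 3913. DESeq2 called 92 genes in females and 212 in males, and voom with sample quality weights called 1088 (6.67%), Sufu among them, and 1674 (10.3%), Sufu and Boc among them. All 10 estimates were positive in females (median log2 fold change 0.363) and 9 of 10 in males (median 0.364). Sufu had 9.0 ± 3.40 CPM (SD, n = 6) in PBS females and 14.8 ± 0.342 CPM (SD, n = 3) in treated females. Its log2 fold change in females was 0.71 ± 0.28 (SE), with FDR = 0.153 in edgeR's test. In males Sufu had 7.83 ± 1.90 CPM (SD, n = 6) with PBS and 11.7 ± 3.33 CPM (SD, n = 6) with HsTX1[R14A]. Its log2 fold change there was 0.58 ± 0.24 (SE), with FDR = 0.183 in edgeR's test. Smo differed in sign, with log2 fold changes of 0.12 ± 0.22 (SE) in females and -0.24 ± 0.18 (SE) in males. The difference between the sexes in the treatment effect was tested by an interaction term, and 0 of 16303 genes (0%) passed in edgeR, DESeq2 or limma, with 270 genes at an unadjusted p under 0.05 in edgeR, none of them among the 10. For Smo the male effect minus the female effect was -0.36 ± 0.28 (SE), and for Gli2 0.38 ± 0.52 (SE).

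Other genes of the pathway were taken from 5 lists. Of 66 pathway genes tested, the 10 included, 20 were higher and 4 lower with HsTX1[R14A], and of the 56 others 17 were higher and 4 lower, with a median log2 fold change of 0.127, against 15.5% and 16.1% over all genes. None of the 66 passed with the length slope in the model, but none of all 16303 genes did either (0%). Among ligands and proteins of ligand release 3 of 7 were higher and 0 lower: Disp2, a Dispatched homolog, at 126 ± 63.6 CPM (SD, n = 12) against 252 ± 118 CPM (SD, n = 9), a log2 fold change of 1.07 ± 0.27 (SE), then Scube1 at 0.74 ± 0.27 and Disp1, which releases lipid-modified ligand from the cell, at 0.43 ± 0.16. Disp2 thus had a larger estimate than any of the 10 genes. Of 10 reception genes 3 were higher and 0 lower, Ptch1, Boc and the glypican Gpc4 (0.45 ± 0.16, SE). The co-receptor Gas1 had a log2 fold change of 0.03 ± 0.10 (SE) and did not pass.

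Among 19 Gli factors and regulators 6 were higher and 1 lower, where 15.5% of all genes were higher and 16.1% lower. Btrc, the F-box protein that marks Gli proteins for processing, had a log2 fold change of 0.38 ± 0.10 (SE), and Gsk3b, a kinase that phosphorylates them, 0.33 ± 0.09 (SE). The ciliary kinesin Kif7 had 0.22 ± 0.24 (SE) and did not pass. Of 18 cilium genes 7 were higher and 3 lower, including the intraflagellar transport gene Ift122 at 0.44 ± 0.11 (SE) and Efcab7, whose product anchors a ciliary complex needed for Smo signaling, at -0.71 ± 0.17 (SE). Of 16 known transcriptional targets 2 were higher, namely Ptch1 and Mycn (0.37 ± 0.11, SE), and 0 lower, to be read against the same shares. Estimates were positive for 11 of the 16, with a median log2 fold change of 0.0959. Those of other targets were negative, such as Nkx6-2 (-0.33 ± 0.18, SE) and Igf2 (-0.19 ± 0.18, SE). Ihh, Dhh, Lrp2 and Grk2 were on the lists but were not found under these names among the genes of the count table, and so were not analysed here.

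The genes whose levels varied most like those of 3 members were sought among 13301 genes over the 21 mice, as Pearson's r of log2 CPM after subtraction of the means of the 4 groups, given as a description. For Shh these were Fzd5, Nxph4 and Abcb6, with r of 0.887, 0.881 and 0.879. For Gli1 they were Nckap5, Mlec and Nhsl1 (0.869, 0.868 and 0.859), and for Ptch1 the bicarbonate transporter Slc4a4, Adcyap1r1 and Amot (0.963, 0.963 and 0.957). All of these values come from libraries that share the length slope, with which Ptch1 itself had r of 0.8, Shh 0.516 and Gli1 0.515 on the same footing.

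Markers of brain cell types were counted in the same fit, in which 15.5% of all genes were higher and 16.1% lower with HsTX1[R14A]. No list was tested, and each count below is to be read against these shares. Of 10 oligodendrocyte markers 6 were lower and 0 higher, with a summed level of 4620 to 7040 CPM in PBS-treated and 3510 to 5150 CPM in HsTX1[R14A]-treated mice, and of 10 microglial markers 4 were lower and 0 higher, at 426 to 619 and 360 to 536 CPM. Of 12 astrocyte markers 2 were higher and 4 lower, at 3550 to 5640 and 3630 to 5730 CPM. Such sums weigh most on abundant genes, here Slc1a2, at a mean of 2010 CPM with PBS and 2460 CPM with HsTX1[R14A]. Estimates were positive for 5 of the 12 astrocyte markers. Of 12 neuronal markers 3 were higher and 0 lower (6610 to 9980 and 8290 to 11900 CPM), of 10 markers of oligodendrocyte precursors 3 were higher and 0 lower (350 to 624 and 361 to 673 CPM), and of 10 endothelial markers 2 were higher and 0 lower (113 to 169 and 115 to 189 CPM). Of 10 markers of ependyma and choroid plexus 2 were lower and 0 higher, at 83.9 to 1140 and 70.5 to 849 CPM, and of 11 markers of Bergmann glia and cerebellum 1 was higher and 0 lower, at 649 to 1020 and 668 to 1800 CPM. Of 9 hypothalamic markers (159 to 618 and 186 to 379 CPM) and 10 striatal markers (1080 to 2310 and 601 to 2380 CPM) none passed. None of these markers passed with the length slope in the model, but none of all 16303 genes did either (0%). The part of the markers in the results for the Hedgehog pathway genes was not tested.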

How the data were processed

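The authors deposited estimated counts per gene, made from whole-brain libraries with the NfCore/RNAseq pipeline, STAR and Salmon on GRCm38 (the methods name a directional library kit and the labels another, so the use of strand is not certain). Another 53 per-sample columns of the same file (37 of CPM and 16 of counts) and the authors' columns of fold changes, p-values and FDR were not used. Estimated counts were rounded (90.496% lay within 0.01 of a whole number). Genes were filtered with edgeR's filterByExpr over the 4 groups, and TMM-scaled counts went into edgeR 4.0.16 (R 4.3.3; quasi-likelihood test; sex and treatment; Benjamini-Hochberg; FDR at most 0.05). Effects within each sex and the interaction came from a 4-group fit. SE is the log2 fold change divided by the root of F. Log2 CPM used a prior count of 2. Alternatives used DESeq2 1.42.0, limma 3.58.1, sva 3.50.0, loess (span 0.5), other scalings, filters and covariates, and each mouse left out. Lengths came from GENCODE M21, upstream sequences from RefSeq. Scripts were tested on simulated data. Mice are separate animals. Depth limits the precision of genes near 15 counts. Named genes were the 10 members, the 2 other genes of smallest p in each pathway list, fixed role genes, and the 3 genes most correlated with Shh, Gli1 and Ptch1. A gene that this rule names is not reported here. The members and lists were chosen with earlier results of these data known.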

Additional observations from a re-analysis of the deposited data

How the results depend on the processing

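No paired analysis was possible because the mouse numbers in the labels are unique to each mouse and the groups share none. Over all genes, 5144 passed for treatment. The count was 0 with the library length slope as covariate, 0 among the more common name form and 0 among the less common one (both of which leave fewer mice), 1999 with the name form as covariate, 2110 with 1 surrogate variable, 2438 with the length and GC trend removed and 2984 without the sex term. It was 1549 without the 2 libraries highest in cerebellar markers and 2887 without the 2 of lowest length slope, both chosen after seeing the data. Leaving out 1 mouse gave 2289 (without PBS male 90) to 6614 (without HsTX1[R14A] male 93), with 3332, 3005, 3263 and 3121 without treated female 71, treated female 98, treated male 81 and treated male 88. Of the 10 Hedgehog pathway genes 3 passed. The number was 0 with the length slope, 0 within either name form and 0 without the 2 cerebellar libraries, 1 with a surrogate variable or the trend removed (Sufu), and 5 with limma/voom, DESeq2 or voom with sample quality weights, in which 5201 (31.9%), 6145 (37.7%) and 5662 (34.7%) of all genes passed. Leaving out 1 mouse gave 2 to 6, the 6 without PBS female 84 or treated male 93, where 5984 and 6614 of all genes passed. For sex, females and males the numbers were 2, 1 and 2 with sample quality weights, and 0 in every other fit; leaving out 1 mouse gave 0 to 0. The interaction gave 0 throughout. Estimates changed sign for Cdon (-0.11 with the slope, -0.00144 with the trend removed), Gli1 (-0.0486 with the trend removed, -0.0439 in the less common form), Gli2 (-0.17) and Gli3 (-0.0123) with the slope, Shh (-0.11 in the less common form), and Smo (0.00979 with the name form, 0.0369 in the more common form). The causes were not tested. RLE scaling and both other filters left the 3 calls as they were.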

Other observations

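Over the 45 pairs of the 10 genes, the correlation of log2 CPM across 21 mice after subtraction of the 4 group means is given as a description, since all pairs share libraries and length slope. It ran from -0.269 for Smo and Boc to 0.93 for Gli2 and Sufu, with a median of 0.518. The pairs with Smo lay between -0.269 and 0.691, the highest being Smo with Gli1, and the 36 pairs without Smo had a median of 0.615. No mouse stood apart in any of the 40 combinations of gene and group of 6 or 9 mice by Dixon's test at the 95% level.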
